A study of Canis lupus familiaris with 20 samples.

Results

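ADM, CA9 and VEGFA are 3 genes known to be switched on when cells lack oxygen, and they are described here across canine mammary cancer cells and canine macrophages grown apart or together. They were found by matching the RefSeq accession of each array probe to a gene symbol, which gave 5 probes of 43603 on the array. ADM had 1 probe, and CA9 and VEGFA had a brighter and a dimmer probe each. They are 3 of the 1045 genes that could be named in this way.

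When oxygen is short, the hypoxia-inducible factors HIF1A and EPAS1 escape the breakdown that VHL directs and bind to the promoters of their target genes. ADM encodes adrenomedullin, a secreted peptide that widens blood vessels and acts through the receptor CALCRL with its RAMP partners. CA9 encodes carbonic anhydrase 9, an enzyme on the outer cell membrane that helps tumour cells to export acid. VEGFA encodes the vascular endothelial growth factor that binds FLT1 and KDR on endothelial cells and drives vessel growth, and both tumour cells and macrophages are known to secrete it.

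Monocytes selected by their surface CD64 from the blood of healthy dogs were laid onto 5 mammary cancer lines stained with the dye CMTMR. After 72 h the stained cancer cells and the unstained macrophages were separated by flow cytometry. On 2-colour arrays the RNA of each sorted population was hybridized against that of its own mono-culture. The co-cultures were trypsinized and sorted, while the mono-cultures were washed and scraped, with no sorting named for them. Every ratio thus also compares these ways of harvest, which cannot be told apart from the co-culture itself. The lines were CMT-U27 from a simple carcinoma, CMT-U309 from a spindle-cell tumour, P114 from an anaplastic cancer, and CMT-W1 and CMT-W2 from adenocarcinomas. All cultures shared RPMI-1640 medium with serum, and no agent and no lowering of oxygen is named for any of them. The macrophages were not stimulated with growth factors and are described by the study as partly differentiated. The 20 arrays form 10 dye-swap pairs, 1 for each line and cell type, and a pair counted as 1 replicate, so n = 5 in each cell type. Each cancer line is a single line, and whether the macrophage mono-cultures of the 5 co-cultures were separate cultures is not stated, so the spread between them may be technical.

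Between 40.8% and 96.3% of the probes were well above background in a channel. The sorted populations differed from their mono-cultures in the genes that mark each cell type. A gene is said here to have a probe where an accession gave its symbol, as for 1648 of 43603 probes. Unnamed probes may cover other listed genes. Of 28 listed macrophage markers 16 had a probe. Their summed level, on a log2 scale of normalized signal, was 13.41 to 15.79 in the cancer cell mono-cultures, 14.72 to 19.31 in the sorted cancer cells, 16.55 to 18.30 in the sorted macrophages and 19.66 to 20.04 in the macrophage mono-cultures. Among them 13 of 15 tested rose in the sorted cancer cells and 15 of 16 fell in the sorted macrophages, at an adjusted p under 0.05 by limma. Over all genes tested 14.5% changed so in the cancer cells and 50.3% in the macrophages, in either direction. The macrophage receptor CD163 gave a signal well above background in 4 of 10 hybridizations of cancer cell mono-cultures and in all 10 of the sorted cancer cells. Only 4 of 18 epithelial markers had a probe, and their summed level was 12.91 to 14.67 in the cancer cell mono-cultures, 11.89 to 13.78 in the sorted cancer cells, 11.33 to 11.43 in the macrophage mono-cultures and 10.87 to 13.45 in the sorted macrophages. Of 13 fibroblast and mesenchymal markers 7 had a probe, with summed levels of 14.14 to 17.04 in the cancer cell mono-cultures, 14.06 to 16.53 in the sorted cancer cells, 14.22 to 14.54 in the macrophage mono-cultures and 14.29 to 16.70 in the sorted macrophages. Of 12 lymphocyte markers 5 had a probe, at 6.91 to 10.61 in the cancer cell mono-cultures, 8.04 to 11.34 in the sorted cancer cells, 11.10 to 11.31 in the macrophage mono-cultures and 9.84 to 12.46 in the sorted macrophages. In the CMT-U27 co-culture the cells labelled cancer cells held more macrophage marker signal (19.31) than the cells labelled macrophages (17.61), and less epithelial marker signal (12.56 against 13.25). This goes against the labels of that co-culture, and the results that change without it are given so below.

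**Figure D1:**
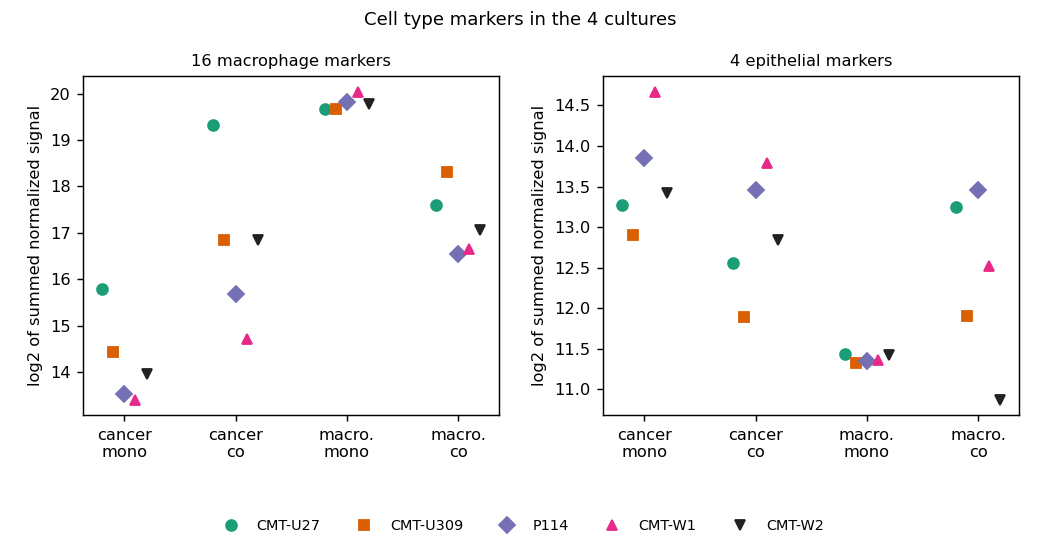
Summed level of the 16 macrophage markers (left) and the 4 epithelial markers (right) in each culture, as the log2 of the summed normalized signal on the vertical axis. A point is the mean of a dye-swap pair, coloured by line; the sorted cancer cells of CMT-U27 reach 19.31 in the left panel, near the macrophage mono-cultures.

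A wider set showed the same movement. Genes at least 16-fold higher in the macrophage mono-cultures of the other 4 lines had a median log2 ratio (co-culture over the matching mono-culture) of 3.68 in the sorted cancer cells of CMT-U27, 2.59 in CMT-U309, 2.40 in P114, 2.10 in CMT-W1 and 3.35 in CMT-W2. Genes at least 16-fold higher in the cancer cell mono-cultures, chosen likewise, had a median of 5.03 in the sorted macrophages of CMT-U27, 4.08 in CMT-U309, 4.56 in P114, 3.96 in CMT-W1 and 3.50 in CMT-W2. The medians cover only genes measured in the pair, with the lowest share in CMT-W1: 392 of 687 in its cancer cells and 314 of 415 in its macrophages. A gene not well above background in the mono-culture was measured only where the sorted cells were, so the medians may overstate the gain. The part of these gene sets in the results on ADM, CA9 and VEGFA was not tested. In such bulk samples fewer cells of a type and less RNA per cell cannot be told apart.

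ADM rose in the macrophages of every co-culture. Its log2 ratio, co-culture over the matching mono-culture, was 1.81 with CMT-U27, 2.29 with CMT-U309, 0.74 with P114, 0.75 with CMT-W1 and 1.86 with CMT-W2. The macrophages kept with P114 and CMT-W1 showed the smallest rise, and those kept with CMT-U309 the highest. The mean was 1.49 ± 0.30 (SE, n = 5), a 2.81-fold rise with an adjusted p of 0.00471 by limma. In macrophages 50.3% of 24228 genes tested were called at an adjusted p under 0.05, so a call by itself was common. A ratio above 0 in all 5 co-cultures was found for 20.3% of the genes measured in all of them. The arrays of a dye-swap pair gave ADM ratios that differed by at most 0.28, and by at most 0.40 on the brighter VEGFA probe, 1.63 on the dimmer VEGFA probe, 1.71 on the brighter CA9 probe and 1.68 on the dimmer one.

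The levels behind these ratios were 11.17, 11.24, 11.19, 10.78 and 11.04 in the mono-cultures belonging to CMT-U27, CMT-U309, then P114, CMT-W1 and finally CMT-W2, on the log2 scale of normalized signal. After co-culture they were 12.98, 13.53, 11.93, 11.54 and 12.90 in the same order. The mono-cultures thus lay within 0.46 of each other, and the ranges of both cultures did not overlap, which was also so for 36.4% of genes in the macrophages. The call stayed under each of the 15 alternatives tried, with log2 values of 1.29 to 1.68 and adjusted p of 0.00279 to 0.0272, and without CMT-U27 it was 1.41 (0.0176). Cancer cell genes were also gained in these sorted macrophages, and ADM was higher in the cancer cells than in the macrophages before co-culture. The gain had medians of 5.03, 4.08, 4.56, 3.96 and 3.50 in the order of lines above. Each median rests on its own set of genes, so their order is not set against that of the ADM rise. The part of that gain in the rise was not tested.

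In the cancer cells the lines went different ways for ADM. The log2 ratio was 1.16 in CMT-U27, -0.87 in CMT-U309, -1.49 in P114, 1.80 in CMT-W1 and 2.61 in CMT-W2. Both adenocarcinoma lines and CMT-U27 were higher in co-culture, and the other two were lower. The mean was 0.64 ± 0.61 (SE, n = 5) with an adjusted p of 0.49, against a background of 14.5% of 23086 genes called in the cancer cells. It was 0.15 without CMT-W2, 0.35 without CMT-W1, 1.02 without CMT-U309, 1.18 without P114 and 1.33 with normexp and median centring, and passed the test under none of these. No member was above 0 in all 5 lines on a brighter or only probe, a pattern seen for 15.0% of genes.

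The ADM level in the cancer cell mono-cultures was 12.19 in CMT-U27, 14.33 in CMT-U309, 13.72 in P114, 11.25 in CMT-W1 and 13.50 in CMT-W2. In the sorted cancer cells it was 13.35, 13.46, 12.23, 13.05 and 16.12 in that order. The line with the lowest mono-culture level, CMT-W1, lay next to the macrophage mono-cultures. The highest level of any culture was that of sorted CMT-W2 cells. The ranges of co-culture and mono-culture overlapped for every member in the cancer cells, and did not overlap for 3.01% of all genes.

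Before co-culture ADM was 1.91 ± 0.53 (SE) lower in macrophages than in cancer cells on the log2 scale (n = 5 and 5, adjusted p = 0.016), where 34.9% of 23678 genes were called. The 2 ranges did not overlap, but by a margin of less than 0.01, and 32.8% of genes had ranges apart. The adjusted p was 0.0644 with the slide as a random block, and 0.057, 0.0659 and 0.0798 without CMT-U309, P114 and CMT-W2. On the only slide that held both cell types, macrophages kept with CMT-U27 and CMT-W1 cells, the mono-culture levels differed by -0.08 (a block by slide gave that value with an adjusted p of 0.941). In order of mean level the cultures were the sorted cancer cells (13.64 ± 1.47, SD), the cancer cell mono-cultures (13.00 ± 1.25), the sorted macrophages (12.58 ± 0.82) and the macrophage mono-cultures (11.08 ± 0.18). Of these neighbours only the sorted macrophages and the macrophage mono-cultures did not overlap. After co-culture the macrophages were 1.06 below the cancer cells (adjusted p = 1), and 0.00421% of 23733 genes, a single gene, were called in that comparison.

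**Figure D2:**
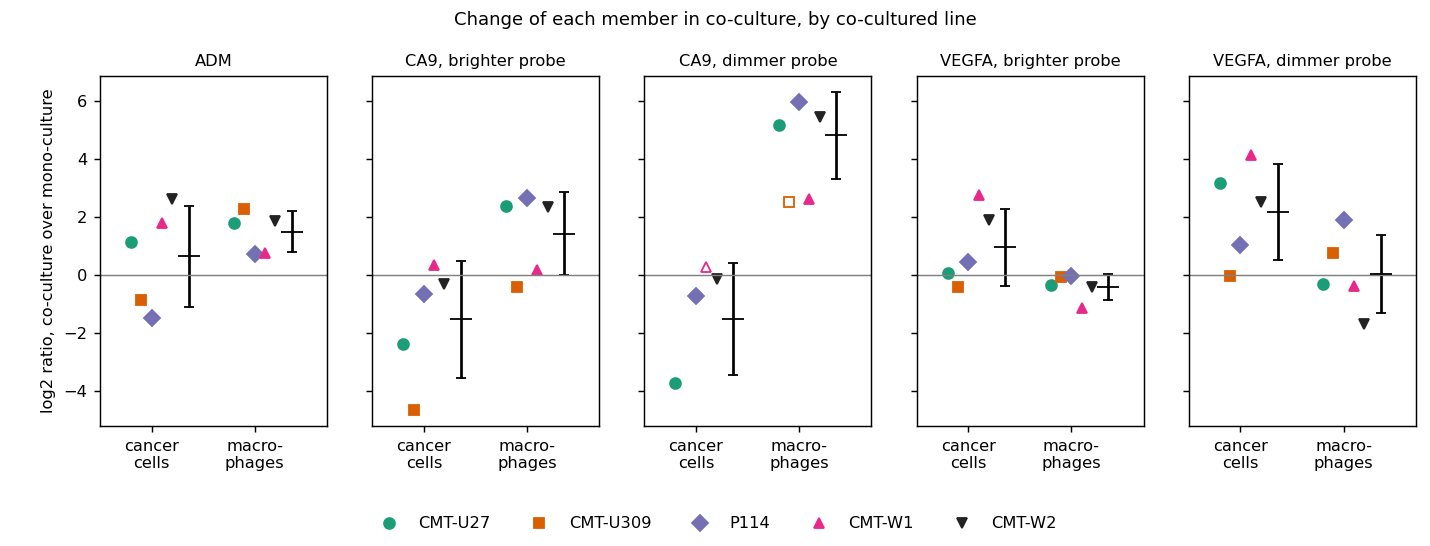
Log2 ratio, co-culture over the matching mono-culture (vertical axis), for each probe in cancer cells and macrophages. A point is a dye-swap pair, coloured by line, open where neither culture was well above background on both arrays; the bar is the mean of the measured pairs ± SD. The dimmer CA9 probe has no point for the CMT-U309 cancer cells, and all 5 ADM points of the macrophages lie above 0, between 0.74 and 2.29, while those of the cancer cells run from -1.49 to 2.61.

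CA9 was higher in the macrophages of 4 of 5 co-cultures and lower in 4 of 5 cancer lines on its brighter probe. In the macrophages the log2 ratio was 2.39 with CMT-U27, -0.43 with CMT-U309, 2.64 with P114, 0.19 with CMT-W1 and 2.35 with CMT-W2. The co-cultures fell apart into 3 with a rise above 2 and the other two near 0. With CMT-W1 the dye orientations gave opposite signs, 1.05 and -0.66 in the macrophages and 0.83 and -0.12 in the cancer cells, so its place in both counts is not settled. The mean was 1.43 ± 0.49 (SE, n = 5), a 2.69-fold rise with an adjusted p of 0.0417. That call was lost without CMT-U27 (adjusted p = 0.116), without P114 (0.119) and without CMT-W2 (0.124), and with normexp background correction, where the value was 0.69 (0.0694) after loess and 0.63 (0.117) after median centring. Of 15 alternatives 7 kept it.

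The levels of the brighter probe in the macrophage mono-cultures were 6.75, 6.82, 7.74, 7.60 and 6.84 in the same order of lines. After co-culture they were 9.14, 6.39, 10.39, 7.79 and 9.18. The ranges overlapped, since the macrophages kept with CMT-U309 lay below every mono-culture. In the 3 co-cultures with a rise CA9 lay well above every macrophage mono-culture.

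The dimmer CA9 probe was not well above background in the macrophage mono-culture on any of 10 arrays, so there its level is only bounded. In the sorted macrophages 9 of 10 arrays detected it well above background, with levels of 9.07 with CMT-U27, 5.92 with CMT-U309, 10.31 with P114, 6.95 with CMT-W1 and 9.19 with CMT-W2. On the processed signals CA9 on this probe was at least 6.07-fold higher in co-cultured than in mono-cultured macrophages. This bound sets the mean of all 5 sorted populations against the lowest signal that counted as well above background on each array. It holds only for these signals. With normexp background correction the log2 value was 1.19 after loess and 1.18 after median centring. The brighter probe had a smaller rise, 2.69-fold. With a filter on dim spots a pair could enter the fit only through its sorted macrophages, which left out the low CMT-U309 pair, so that fit is no test of the change. Without the filter all 5 pairs entered, but every mono-culture signal was still not well above background, so that fit is no test either. With the filter 49.9% of 28509 probes were called when every probe was a feature. Both probes put the sorted macrophages in one order, with P114 highest and CMT-U309 lowest.

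In the cancer cells the brighter CA9 probe had a log2 ratio of -2.37 in CMT-U27, -4.65 in CMT-U309, -0.64 in P114, 0.36 in CMT-W1 and -0.29 in CMT-W2. The values of CMT-U309 and CMT-U27 were far below those of the others. The mean was -1.52 ± 0.69 (SE, n = 5), and it did not pass the test (adjusted p = 0.171). The value shrank to -0.74 without CMT-U309, -0.91 with normexp and loess and -0.63 with normexp and median centring. Without CMT-U27, whose markers went against its labels, it was -1.31. With the slide as a random block it was -1.71 and the adjusted p 0.0336. The dimmer probe was measured in 3 lines, at -3.71 in CMT-U27, -0.71 in P114 and -0.13 in CMT-W2, with a mean of -1.52 ± 0.73 (SE, adjusted p = 0.217). Its CMT-U309 pair was left out because the spot bore an outlier mark on the array with the most such marks, 9870 spots against 6 to 1438 on the others. The CMT-U309 value of the brighter probe includes that array, at -4.27 beside -5.03 on its dye swap.

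The lines differed widely in CA9 before co-culture. The brighter probe stood at 8.47 in CMT-U27, 11.35 in CMT-U309, 12.12 in P114, 7.91 in CMT-W1 and 11.68 in CMT-W2, and after co-culture at 6.11, 6.70, 11.48, 8.26 and 11.39. P114 and CMT-W2 kept a high level in both cultures, and CMT-U309 changed from a high to a low one. In CMT-U309, the sorted cancer cells and the sorted macrophages ended close together, at 6.70 and 6.39.

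Macrophages in mono-culture had less CA9 than the cancer cells. On the brighter probe the difference was -3.16 ± 0.80 (SE, n = 5 and 5, adjusted p = 0.0104), and the ranges did not overlap. In this comparison 34.9% of genes were called and 32.8% had ranges apart. The dimmer probe was kept in 4 cancer cell mono-cultures. On the processed signals their mean was at least 9.08-fold above that of the macrophages. The fit gave an adjusted p of 0.014 from 9 pairs, where 35.3% of 27829 probes were called. Its macrophage signals were all not well above background, so that p is no test of the size of the difference. Of these 4 lines CMT-W1, at 4.51, was itself not well above background and showed no such difference. For the brighter probe the adjusted p was 0.0542 without CMT-U309 and 0.0625 without CMT-W2, and on the slide with both cell types the difference was -1.15 (0.547 with the slide as a fixed block). For the dimmer probe the difference on that slide was only -0.63, between spots that were all not well above background. By mean level of the brighter probe the cultures ran from the cancer cell mono-cultures (10.31 ± 1.96, SD) over the sorted cancer cells (8.79 ± 2.54) and the sorted macrophages (8.58 ± 1.53) to the macrophage mono-cultures (7.15 ± 0.48), and each overlapped its neighbour. The sorted populations differed by -0.21 on the brighter probe (adjusted p = 1), a value whose sign turned without P114 or CMT-W2. Without CMT-U27 it was -1.02, and on the dimmer probe it then turned from 0.47 to -0.9998.

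The CA9 changes of the 2 cell types differed from each other. The ratio in macrophages minus that in cancer cells was 2.95 ± 0.94 (SE, 10 pairs) on the brighter probe with an adjusted p of 0.0312, and 31.7% of 22427 genes were called in this comparison. On the dimmer probe the filter again kept macrophage pairs only through their sorted cells. Without it 9 pairs entered, but the macrophage mono-culture signals were still not well above background. Neither fit is a test of this difference. The background with the filter was 32.6% of 26469 probes called. Under normexp and median centring the filtered fit had an adjusted p of 0.0868. For the brighter probe the adjusted p was 0.134 without CMT-U27, 0.0792 without P114 and 0.0691 without CMT-W2, and the value was 1.60 (0.07) with normexp and loess and 1.25 (0.184) with normexp and median centring. Of 16 alternatives 8 kept the call. For ADM the same difference was 0.85 ± 0.73 (SE, adjusted p = 0.401). Cancer cell genes were also gained in these sorted macrophages, and macrophage genes in these sorted cancer cells. Their part in the CA9 difference was not tested.

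**Figure D3:**
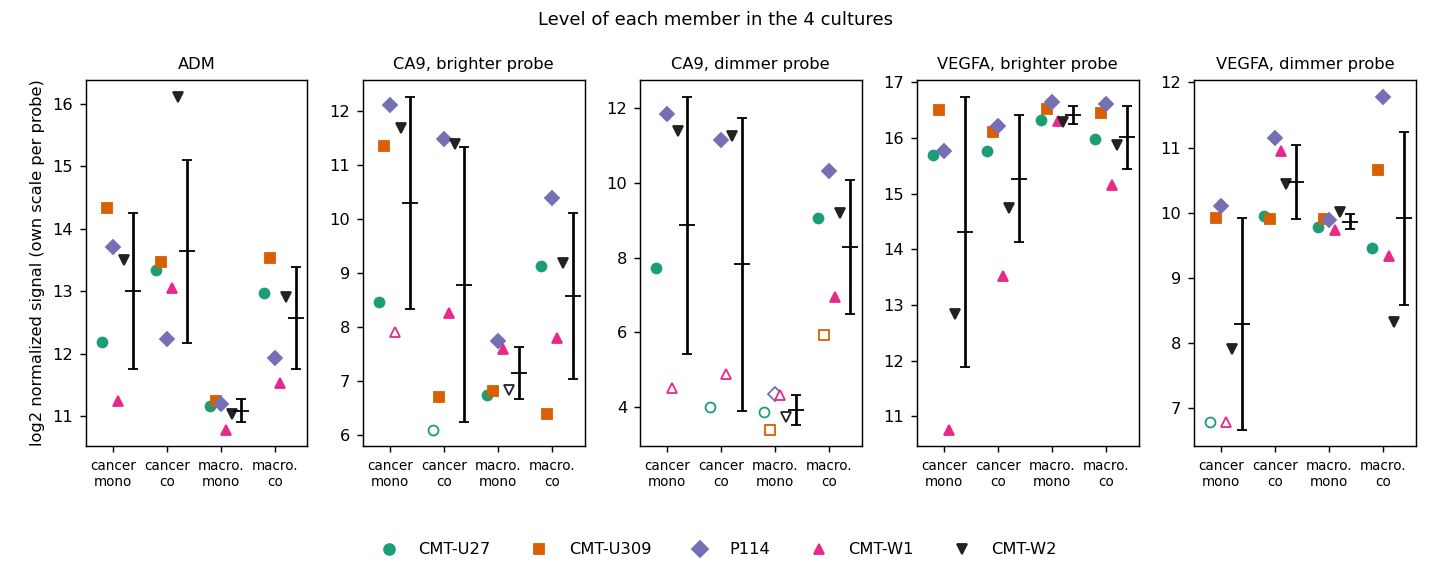
Level of each probe in the 4 cultures as log2 normalized signal (vertical axis, own scale per probe, so heights are not comparable between panels). A point is the mean of a dye-swap pair, coloured by line, open where it was not well above background on both arrays; the bar is the mean ± SD. The macrophage mono-cultures lie close together on every probe, with SDs of 0.11 to 0.48, while the cancer cell mono-cultures spread with SDs of 1.25 to 3.44.

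VEGFA on its brighter probe was highest in the macrophage mono-cultures and varied widely among the cancer lines. In the macrophages the brighter probe had a log2 ratio of -0.34 with CMT-U27, -0.08 with CMT-U309, -0.04 with P114, -1.14 with CMT-W1 and -0.42 with CMT-W2. All 5 values were below 0, as were those of 31.4% of genes measured in all 5 co-cultures, and only that of CMT-W1 went beyond 1. The mean was -0.40 ± 0.25 (SE, n = 5), which did not pass the test (adjusted p = 0.205). The median over all genes tested in macrophages was -0.16. The dimmer probe gave -0.32, 0.75, 1.89, -0.39 and -1.69 in that order of lines, with a mean of 0.05 ± 0.47 (SE, adjusted p = 0.94), and its sign turned without CMT-U309 or P114.

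The macrophage level of the brighter VEGFA probe was 16.32, 16.53, 16.64, 16.30 and 16.28 in mono-culture and 15.98, 16.45, 16.60, 15.16 and 15.86 after co-culture, in the order of lines above. No VEGFA spot bore the mark of a saturated signal. The dimmer probe was well above background on every macrophage array, at 9.73 to 10.01 in mono-culture and 8.32 to 11.78 after co-culture. Both probes thus had a narrow range in the mono-cultures and a wider one after co-culture, and they did not rank the co-cultures alike: CMT-W1 was lowest on the brighter probe and CMT-W2 on the dimmer one.

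In the cancer cells the brighter VEGFA probe had a log2 ratio of 0.08 in CMT-U27, -0.41 in CMT-U309, 0.45 in P114, 2.76 in CMT-W1 and 1.90 in CMT-W2. Both adenocarcinoma lines stood above the other 3. The mean was 0.96 ± 0.48 (SE, n = 5) with an adjusted p of 0.202, and it was 1.47 with an adjusted p of 0.0462 under normexp and median centring, a scaling that moved the median of all genes in the cancer cells from -0.02 to 0.22. Without CMT-W1 it was 0.51. The dimmer probe gave 3.16 in CMT-U27, -0.02 in CMT-U309, 1.05 in P114, 4.15 in CMT-W1 and 2.53 in CMT-W2. Its mean of 2.17 ± 0.58 (SE, n = 5) passed the test with an adjusted p of 0.0487, where 13.6% of 27200 probes were called. It did not pass without CMT-U27 (adjusted p = 0.133), P114 (0.0743), CMT-W1 (0.0936) or CMT-W2 (0.105), with no filter on dim probes (0.117) or with the co-culture in Cy5 alone (0.0592). With normexp and loess it was 0.97 (0.0586). Of 14 alternatives 7 kept the call.

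The VEGFA probes disagreed most in CMT-U27, by 0.08 against 3.16. The dimmer probe was well above background on 1 of 2 arrays in the mono-cultures of CMT-U27 and of CMT-W1. In the cancer cell mono-cultures the brighter probe stood at 15.69 in CMT-U27, 16.51 in CMT-U309, 15.76 in P114, 10.76 in CMT-W1 and 12.84 in CMT-W2, and in the sorted cancer cells at 15.77, 16.10, 16.21, 13.52 and 14.74. On this probe both adenocarcinoma lines began lowest and remained lowest, and the others were near the macrophage level throughout. The dimmer probe stood at 6.78 in CMT-U27, 9.92 in CMT-U309, 10.10 in P114, 6.79 in CMT-W1 and 7.91 in CMT-W2 in mono-culture. In the sorted cancer cells it stood at 9.94, 9.90, 11.15, 10.94 and 10.43 in that order, so it ranked the lines differently. The ratio and the mono-culture level share that mono-culture, so a low level and a high ratio are not independent. The Pearson correlation of the probes over the 20 culture levels was 0.54 for VEGFA, and 0.93 over 18 levels for CA9, as a description of levels that share libraries.

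The VEGFA level in mono-culture was 2.10 ± 0.95 (SE) higher in macrophages than in cancer cells on the brighter probe (adjusted p = 0.107) and 1.57 ± 0.66 higher on the dimmer one (0.0854). On the slide with both cell types, where the cancer cells were CMT-W1, the brighter probe differed by 5.55, with an adjusted p of 0.0292 for the slide as a fixed block. By mean level of the brighter probe the order was the macrophage mono-cultures (16.41 ± 0.16, SD), the sorted macrophages (16.01 ± 0.57), the sorted cancer cells (15.27 ± 1.14) and the cancer cell mono-cultures (14.31 ± 2.43), and each overlapped its neighbour. On the dimmer probe sorted cancer cells (10.47) were highest, then sorted macrophages (9.91), macrophage mono-cultures (9.87) and cancer cell mono-cultures (8.30). After co-culture the difference of macrophages minus cancer cells was 0.74 on the brighter probe (adjusted p = 0.9998 by limma). It had the other sign on the dimmer probe, at -0.56, and was not called there either. The ratio in macrophages minus that in cancer cells was -1.36 ± 0.56 (SE, adjusted p = 0.0853) on the brighter probe and -2.12 ± 0.82 (0.0652) on the dimmer one. For the brighter probe the adjusted p was 0.00861 under normexp and median centring and 0.0466 without CMT-U309. For the dimmer probe it was 0.0247 without CMT-U309, 0.0307 without P114 and 0.0466 with the slide as a random block. Macrophage markers rose in the same sorted cancer cells, and their part in the VEGFA values was not tested.

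Few other genes of these pathways could be named by accession on the array. Of 14 listed genes of the adrenomedullin system 4 had a probe and 2 were tested. ACKR3, a scavenging receptor that binds adrenomedullin and the chemokine CXCL12, rose by 3.50 ± 0.46 (SE) in the cancer cells (5 of 5 lines, adjusted p = 0.00847) and fell by 3.08 ± 0.80 in the macrophages (5 of 5, 0.0135). It was 5.85 higher in macrophages than in cancer cells in mono-culture (0.000242). CALCR, the calcitonin receptor, fell by 1.59 in the cancer cells (0.0198) and by 2.19 in the macrophages (0.000379). The median of the pair was 0.95 in the cancer cells and -2.63 in the macrophages, beside -0.02 and -0.16 over all genes tested.

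Of 17 genes of VEGF, angiopoietin and related ligands and receptors 5 had a probe and 2 were tested. EDN1, the vessel-constricting peptide endothelin 1, had a log2 ratio of -0.41 in the cancer cells (adjusted p = 0.556). In the macrophages its mean level was 4.22 in mono-culture and 8.22 after co-culture on the log2 scale of normalized signal. It was well above background in 1 of 10 hybridizations of macrophage mono-cultures, 8 of 10 of sorted macrophages and 10 of 10 of cancer cell mono-cultures, so pairs entered the macrophage fit almost only through the sorted cells, and no ratio or p is given there. PDGFB, a growth factor for the cells that surround vessels, had -0.05 in the cancer cells (0.903) and -0.16 in the macrophages (0.716). The median of both was -0.23 in the cancer cells.

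Of 26 carbonic anhydrases and acid-base transporters 7 had a probe and 3 were tested. ATP6V0E1, a subunit of the proton pump of lysosomes, rose by 2.28 in the cancer cells (5 of 5 lines, adjusted p = 0.00664) and had -0.66 in the macrophages (0.0935). It was 3.61 higher in macrophages than in cancer cells in mono-culture (0.000446). CA1, a cytosolic carbonic anhydrase, had -0.51 in the cancer cells (0.154) and -0.54 in the macrophages (0.111). ATP4A, the gastric proton pump, had -0.50 (0.207) and -0.52 (0.178). The medians of the 3 were -0.50 and -0.54. Of 15 genes of oxygen sensing only VHL had a probe that could be named, and it had 0.02 in the cancer cells over 3 lines (0.971) and 0.48 in the macrophages (0.275). No probe could be named as HIF1A or EPAS1 by its accession, so they are not analysed here.

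Of 30 genes of glucose transport and glycolysis 4 had a probe and 3 were tested, of which 2 rose in the macrophages and none was called in the cancer cells. Over all genes tested 50.3% were called in the macrophages and 14.5% in the cancer cells. GAPDH, an enzyme of glycolysis, rose by 1.46 in the macrophages (5 of 5, adjusted p = 0.00209) and had 0.67 in the cancer cells (5 of 5 above 0, 0.152). SLC2A1, the glucose transporter GLUT1, rose by 1.04 in the macrophages (4 of 5, 0.0257) and had 0.42 in the cancer cells (0.541). TPI1, another enzyme of glycolysis, was above 0 in all 5 pairs of each cell type, at 0.43 in the macrophages (0.147) and 0.77 in the cancer cells (0.102). The median of the list was 1.04 in the macrophages and 0.67 in the cancer cells, beside -0.16 and -0.02 over all genes tested. Without CMT-U27 GAPDH alone was called in the macrophages.

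Of 41 other genes reported to respond to hypoxia 8 had a probe and 7 were tested. In the macrophages 1 rose and 1 fell, beside 50.3% of all genes called there. ADORA2B, an adenosine receptor, rose by 3.14 (4 of 4 co-cultures measured, adjusted p = 0.00244), with a signal well above background in 6 of 10 hybridizations of the mono-cultures. HMOX1, the haem-degrading enzyme, fell by 4.01 (5 of 5, 7.27e-05), and was 3.82 higher in macrophages than in cancer cells in mono-culture (0.00611).

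In the cancer cells 1 of these 7 rose and none fell, beside 14.5% of all genes called there. ADORA2A, another adenosine receptor, rose by 2.48 (5 of 5, adjusted p = 0.00396), and was also called without CMT-U27. MET, the receptor of hepatocyte growth factor, had -1.998 in the cancer cells (0.078) and 1.40 in the macrophages (0.0868). ABCB1, a drug efflux pump, had 0.99 (0.27) and 0.02 (0.974). NOS3, the endothelial nitric oxide synthase, had -0.18 (0.577) and -0.23 (0.523). TFRC, the transferrin receptor, had -0.24 (0.467) and -0.27 (0.498). The median of the 7 was 0.08 in the cancer cells and -0.23 in the macrophages, against -0.02 and -0.16 over all genes tested.

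**Figure D4:**
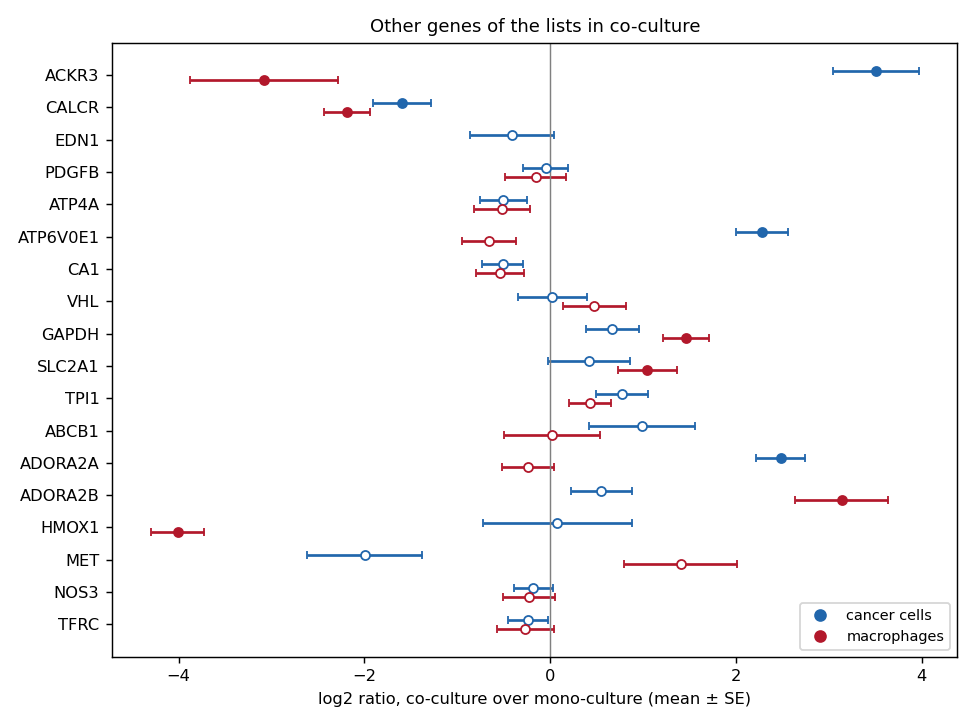
Mean log2 ratio, co-culture over the matching mono-culture, ± SE (horizontal axis) for the 18 tested genes of the lists, in cancer cells (blue) and macrophages (red), with filled points at an adjusted p under 0.05. EDN1 has no macrophage point, since its mono-cultures were almost never well above background. Of the macrophage points shown ADORA2B (3.14) lies furthest to the right and HMOX1 (-4.01) furthest to the left.

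The members did not share a pattern over the 20 culture levels (4 cultures of 5 pairs). The Pearson correlation was 0.51 between ADM and CA9, -0.08 between ADM and VEGFA and -0.15 between CA9 and VEGFA. Among 644 other named genes, those most like ADM were SERPINH1, a collagen chaperone (0.72), SRP72, a subunit of the signal recognition particle (0.68), and the transcription factor SNAI2 (0.67). Those most like CA9 were CCND1, which encodes cyclin D1 (0.78), the nucleoside transporter SLC29A1 (0.75) and the protease-activated receptor F2RL1 (0.75). Those most like VEGFA were the selenoprotein SELENOW (0.92) and the interferon-induced OAS2 (0.89) and EIF2AK2 (0.89). The levels share cell lines and arrays, so these values are given as a description.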

How the data were processed

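Gene expression was measured on 20 Agilent 2-colour arrays, 10 per cell type. The authors scanned them and deposited Agilent Feature Extraction (version 10.7.3.1) output, with intensity columns (background and processed signals), flags for spots well above background, saturated or outlying, and a log10 ratio of Cy5 over Cy3 after dye normalization. The deposited table of log10 values equals that ratio turned to co-culture over mono-culture. No column was without a sample. Probes were matched to symbols by accession in the table of assembly UU_Cfam_GSD_1.0 (1648 probes). Coordinates are not given, since the array was designed on canFam2.

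Ratios were turned to log2 of co-culture over the matching mono-culture and averaged within each dye-swap pair. Outlier spots were left out. A pair was measured where either culture was well above background on both arrays, and a gene, represented by its brightest probe, was tested where at least 3 of 5 pairs were measured. Unmeasured pairs were left missing. Levels are processed signals per channel after Aquantile normalization, as the mean of both dyes, tested where 3 pairs of either cell type were well above background. limma (version 3.58.1, R 4.3.3) gave the values, and p-values were adjusted by Benjamini-Hochberg over all genes, or over all probes for the dimmer probes. The number of arrays limits the precision. The scripts were tested on simulated data. Arrays of a pair, biological replicates in the labels and a dye swap in the methods, were counted once.

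Sorted populations of one co-culture share the line, so the numbers pair them by design. The correlation of their deviations over 14122 genes was 0.45 in CMT-U309, 0.27 in CMT-W1, 0.19 in P114, 0.06 in CMT-W2 and 0.04 in CMT-U27. Arrays lay on 5 slides, of which 1 held both cell types. The members and gene lists were chosen with earlier results of these data known. Named were all member probes, the tested genes of each list (all lists had 8 or fewer), and the 3 genes most like each member. One gene is not reported here and was left out of its list and of the likeness search. Alternatives covered background correction, normalization, filters, dyes, slide, pairing, the methods' t-test and leaving out each line.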

Additional observations from a re-analysis of the deposited data

Results flagged for a closer look

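The change of CA9 in macrophages minus that in cancer cells passed the test of the difference itself, at 2.95 on the brighter probe. On the dimmer probe the fit gave 6.33, a value that rests on macrophage mono-cultures not well above background and on pairs kept only for their sorted cells, and is neither a test nor a bound. None of 30 groups of ratios or levels of the members was flagged for a sample apart from the rest by Dixon's test, which flags about 1 in 20 groups by chance. The dimmer CA9 ratios in the cancer cells, with 3 pairs, were too few for the test.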

How the results depend on the processing

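For the members on their brighter or only probe, 184 of 216 values under the alternatives kept their direction and their side of the threshold, and for the dimmer probes 115 of 133. The cause of the other changes was not tested. CA9 in macrophages was 0.69 with normexp and loess, 0.63 with normexp and median centring, 1.43 with no filter on dim probes, 1.17 with the co-culture in Cy3 alone, 1.43 with the methods' t-test, and 1.12 to 1.89 leaving out each line. The CA9 difference between cell types was 1.60, 1.25, 2.95 and 2.84 under the first 4 of these, 2.03 with the slide as a fixed block, and 2.50 to 3.72 leaving out each line. CA9 in cancer cells was -1.71 with the slide as a random block, and passed the test. VEGFA under normexp and median centring passed it, at 1.47 in cancer cells and -2.25 for the difference between cell types, which was -1.78 to -0.72 leaving out each line. The ADM mono-culture difference was -1.55 with the slide as a random block, -0.079 as a fixed block and -2.28 to -1.62 leaving out each line, that of CA9 -1.15 with the fixed block and -3.87 to -2.73, and that of VEGFA 5.55 with the fixed block. The CA9 co-culture difference turned to 0.88 with the fixed block and was -1.02 to 0.29 leaving out each line. On the dimmer probes it was -0.9998 to 1.38 for CA9, and the macrophage ratio of VEGFA was -0.41 to 0.48. The fixed block takes its value from the slide with both cell types, where 1 pair stands against 1.

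The replicate block by cell line changed no call of a member. The blocked CA9 difference between cell types was 2.95 (adjusted p = 0.0159).

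Genes called in cancer cells numbered 3343, and 975 with normexp and loess, 1803 with no filter, 2081 with the co-culture in Cy5 alone, 8161 with the slide as a random block, 10 with the methods' t-test after Benjamini-Hochberg, and 828 to 2512 leaving out each line. Macrophage calls fell from 12195 to 6800 under normexp and median centring. Calls of the difference between cell types fell from 7109 to 3999 there and to 33 with the slide as a fixed block, and were 4483 to 6351 leaving out each line. Mono-culture calls were 5212 to 9624 leaving out each line. The single co-culture call became 2 with outlier spots kept, 1838 with the fixed block and 0 to 1 leaving out each line, with 702 genes at an unadjusted p under 0.05. No setting was left out.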
